A study of Homo sapiens with 6 samples.

Results

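Iron handling was followed through 10 genes of the hepcidin axis: hepcidin itself (HAMP), a BMP ligand (BMP6) and a BMP target gene (ID1), the transport genes TF, TFRC and TFR2, the export genes SLC40A1 and CP, and the ferritin genes FTH1 and FTL. They were taken by gene name, and each of the 10 was found once among the 23524 genes of the table. Hep G2, a human liver tumor line, carried an empty lentiviral vector (control) or a vector for overexpression of EFTUD2, which encodes a GTPase of the spliceosome. By the study's methods such stable cells are selected in puromycin and grown in medium with fetal bovine serum. Poly-A selected mRNA of 3 control and 3 EFTUD2-overexpressing libraries was sequenced, and the labels do not say whether the replicates were separate cultures or the lines single clones, so the tests measure the spread between these libraries only. Levels are given as FPKM, which is scaled to transcript length and library size and can be compared between genes.

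The liver sets the iron supply of the body through hepcidin, a peptide hormone secreted by hepatocytes. Hepcidin binds ferroportin, the only known iron exporter, and removes it from the cell surface, which lowers iron entry into plasma. Transcription of its gene is raised by BMP ligands through SMAD proteins and by IL-6 through STAT3. Iron travels in plasma bound to transferrin, enters cells through transferrin receptors and is stored in ferritin, whose synthesis is set by iron regulatory proteins that bind hairpins in the mRNA, called iron-responsive elements.

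The iron-responsive elements of these genes are shown first, since they are the sequences through which iron is known to act on them. They were searched in the GENCODE transcripts as a C, a stem of 5 bases, the loop CAGTGN and 5 bases that pair with the stem, with G-T pairs allowed. Matches were found in 1.48% of 19644 protein-coding genes, and in 5 of the 10 genes described here. FTH1, FTL and SLC40A1 each had 1 match in exon 1, in the 5′ UTR, where binding of an iron regulatory protein is known to block translation. TFRC had 4 in exon 19, in the 3′ UTR, where binding is known to stabilize the mRNA, so that among these genes the mRNA level of TFRC is the one known to follow it. Not all of the 4 matches in TFRC are shown, and an element that departs from this pattern would not be counted. TF also had a match, in the 3′ UTR of 1 long transcript, and it is not shown. Capitals mark the loop, written 5′ to 3′ as in the transcript:
FTH1, chr11:61967573-61967602, minus strand: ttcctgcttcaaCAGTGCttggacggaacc
FTL, chr19:48965335-48965364, plus strand: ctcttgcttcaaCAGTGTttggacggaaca
SLC40A1, chr2:189580660-189580689, minus strand: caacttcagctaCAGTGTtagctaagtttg
TFRC, chr3:196050978-196051007, minus strand: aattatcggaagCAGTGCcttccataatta
TFRC, chr3:196050574-196050603, minus strand: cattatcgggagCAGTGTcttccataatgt

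EFTUD2 itself measured 41.1, 54.4 and 46.3 FPKM in control replicates 1 to 3, and 107, 103 and 109 FPKM in the replicates labelled as overexpressing it. The 10 listed hepatocyte markers were all expressed, with a summed level of 7202 to 11757 FPKM in control and 9832 to 15460 FPKM in EFTUD2-overexpressing cells. Control replicate 1 and EFTUD2 replicate 3 stood farther from the other libraries of their group than those did from each other. The SD over genes of the log2 difference was 0.363 and 0.295 for control replicate 1 against 0.213 between the other controls, and 0.508 and 0.596 for EFTUD2 replicate 3 against 0.231 between the other two.

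In the comparison of EFTUD2-overexpressing with control cells, HAMP, CP, TFR2, BMP6, TF and FTH1 had the larger fitted increases among the 10 genes, and TFRC, SLC40A1 and ID1 had fitted changes near 0. None of the 10 passed the test: limma gave 0 adjusted p-values under 0.05 among them, as among all 17222 genes tested, where 0.0% were called. EFTUD2, the overexpressed gene, was not called either (log2 fold change 1.16, adjusted p = 0.13 from limma). A gene that was not called is therefore not shown to be unchanged. At an unadjusted p under 0.05, TFR2 and BMP6 were higher, 2 of 10 genes against 4.4% of all genes tested. Over all genes this threshold was met by 757 higher and 1361 lower genes, or by 1138 higher and 835 lower genes with the libraries scaled by the median of ratios.

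A log2 fold change above 0 was found for 9 of the 10 genes, against 37.3% of all genes tested (10 of 10 against 51.1% with median of ratios scaling, 8 of 10 against 33.3% with a common sum per library), and their median was 0.36, against -0.07 over all genes. All 3 EFTUD2 libraries lay above all 3 controls for TFR2, FTH1, CP and BMP6, that is 4 of 10 genes against 7.92% of all genes tested. The reverse, all EFTUD2 libraries below all controls, held for 0 of the 10 and for 19.4% of all genes. With quantile scaling the median of the 10 genes was 0.16.

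**Figure D1:**
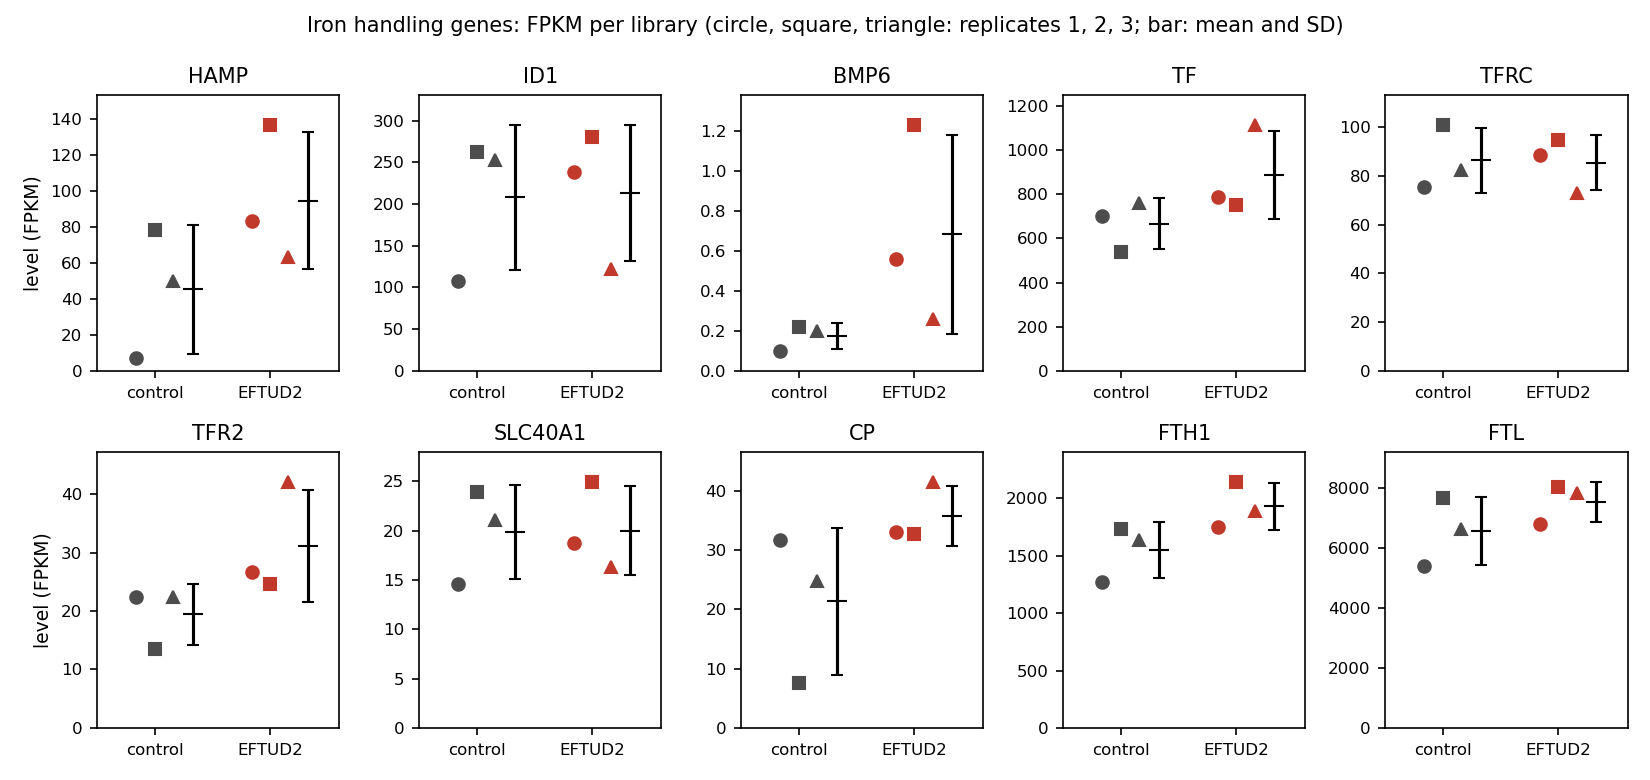
FPKM of the 10 genes in each of the 3 control (grey) and 3 EFTUD2 (red) libraries, with the mean and SD of each group beside the points (n = 3). TFR2, CP, FTH1 and BMP6 do not overlap between groups, and HAMP in control replicate 1, at 7.17 FPKM, lies far below the other 5 libraries.

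**Figure D2:**
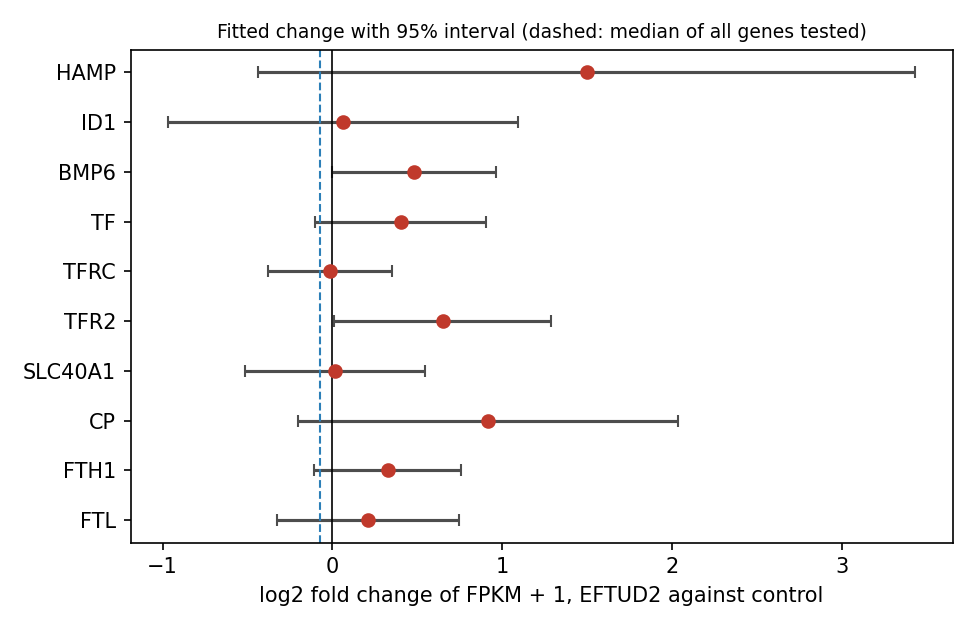
Fitted log2 fold change of FPKM + 1 (EFTUD2 against control) with its 95% interval from limma for each of the 10 genes; the dashed line is the median of all genes tested, -0.07. The interval of HAMP is the widest of the 10, from -0.44 to 3.43, and those of TFR2 and BMP6 begin just above 0.

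Hepcidin (HAMP, Entrez gene 57817, chr19:35280716-35285143, GRCh38) measured 7.17, 78.4 and 50.2 FPKM in control replicates 1, 2 and 3. The EFTUD2-overexpressing libraries held 83.1, 137 and 63.6 FPKM. Control replicate 1 was therefore far below every other library, while EFTUD2 replicate 3 lay between the 2 higher controls. The group means were 45.3 ± 35.9 and 94.5 ± 38.0 FPKM (SD, n = 3 each), a ratio of 2.09.

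The fitted log2 fold change of HAMP was 1.5 (standard error 0.81, 95% interval -0.44 to 3.43), with an adjusted p of 0.44 from limma, and its groups overlapped (exact permutation test, two-sided p = 0.2). Control replicate 1 carried much of this value. Without it the log2 fold change was 0.51, and the mean of the EFTUD2-overexpressing libraries was 1.47 times that of the remaining 2 controls, at 64.3 FPKM. Within the controls alone HAMP differed by 10.9 times between replicates 2 and 1, and its SD on the log2 scale, 1.74, exceeded that of 99.99% of the genes tested.

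ID1 (Entrez gene 3397, chr20:31605283-31606515), a transcription regulator that is a direct target of BMP-SMAD signaling and commonly read beside hepcidin, reached 108, 263 and 253 FPKM in the controls. In the EFTUD2-overexpressing libraries it was at 238, 280.1 and 123 FPKM. Each group thus had 1 low library, control replicate 1 and EFTUD2 replicate 3, and 2 libraries above 230 FPKM. The log2 fold change was 0.06 (standard error 0.43, 95% interval -0.97 to 1.09, adjusted p = 0.95 from limma). It was -0.35 without control replicate 1 and 0.42 without EFTUD2 replicate 3.

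Control replicate 1 was the lowest of the 6 libraries for HAMP and ID1, and the same held for other targets of this pathway. Of 8 tested BMP-SMAD targets listed besides ID1, 6 were lowest there, against 10.4% of all genes tested. ID2, of the same family as ID1, was at 40.3 FPKM in control replicate 1 and between 75.8 and 106 FPKM in the other 5 libraries. ID3 was at 42.3 FPKM there and between 51.9 and 94.9 FPKM elsewhere. SMAD7, an inhibitory SMAD that feeds back on the receptors, was at 6.88 FPKM there and at 8.5 to 12.5 FPKM elsewhere, and SMAD6, another inhibitory SMAD, at 4.13 FPKM and at 5.38 to 6.25 FPKM. Between the groups, 4 of these 8 genes had a fitted increase and 4 a decrease, the median log2 fold change was 0.01, and none separated the groups. SMAD6 (log2 fold change 0.13, adjusted p = 0.69 from limma) and SMAD7 (-0.03, adjusted p = 0.95) differed by less than their standard error.

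**Figure D3:**
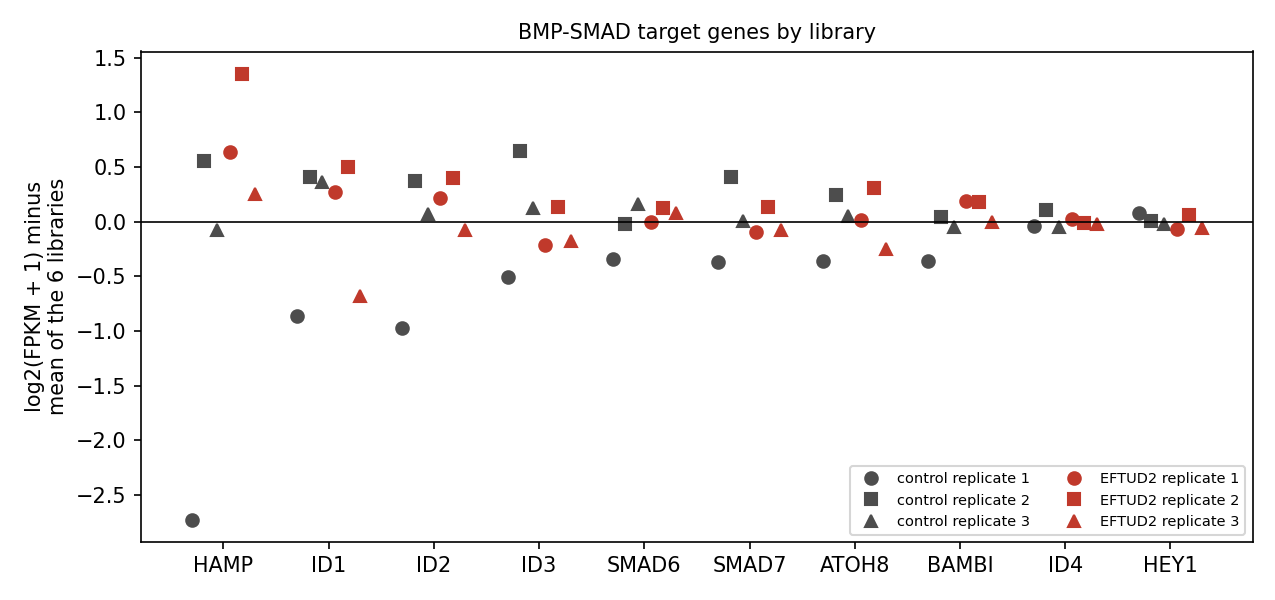
Level of HAMP, ID1 and the 8 other tested BMP-SMAD targets in each library as log2(FPKM + 1) minus the mean of the 6 libraries (grey, control; red, EFTUD2). The grey circle of control replicate 1 is the lowest point for HAMP, ID1, ID2, ID3, SMAD6, SMAD7, ATOH8 and BAMBI.

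Since both genes are targets of one signal, HAMP was also set against ID1 within each library, a ratio in which any single scaling factor per library cancels. It was 0.0664, 0.298 and 0.198 in the controls and 0.349, 0.489 and 0.518 in the EFTUD2-overexpressing libraries. The groups did not overlap (the mean log2 ratio differed by 1.5, with the smallest possible two-sided p = 0.1 in the exact permutation test). Without control replicate 1 the difference was 0.87, with the groups still apart. EFTUD2 replicate 3 had the highest ratio through its low ID1 (123 FPKM). Its HAMP, at 63.6 FPKM, was below that of control replicate 2, at 78.4 FPKM.

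BMP6 (Entrez gene 654, chr6:7726797-7881422), the ligand through which the liver is known to signal iron load to hepatocytes, was low throughout. It was at 0.10, 0.22 and 0.20 FPKM in control and at 0.56, 1.23 and 0.26 FPKM in EFTUD2-overexpressing cells. All EFTUD2 libraries exceeded all controls, replicate 3 only slightly (exact permutation test, two-sided p = 0.1). On the log2(FPKM + 1) scale the change was 0.48 (standard error 0.20, 95% interval 0.00048 to 0.96, adjusted p = 0.40 from limma), while the ratio of the means was 3.94, and with a pseudocount of 0.01 the fitted value was 1.72. Without EFTUD2 replicate 2 the change was 0.26. When deviating libraries were given less weight (array weights in limma), BMP6 was the 1 gene of the 10 called (log2 fold change 0.81, adjusted p = 0.0098), against 5.32% of all genes called higher, although the weights had not converged when their estimation ended.

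BMP2, another ligand of the same receptors, measured 0.06, 0.01 and 0.01 FPKM in control cells, against 1.5, 4.72 and 0.13 FPKM with EFTUD2 (replicates 1 to 3) (log2 fold change 1.30 with a standard error of 0.52, limma's adjusted p = 0.40). Both ligands were highest in EFTUD2 replicate 2 and lowest of their group in replicate 3. Relative to EFTUD2 replicate 2, BMP6 stood at 0.455 in replicate 1 and 0.211 in replicate 3, and BMP2 at 0.318 and 0.0275. All 3 EFTUD2 libraries stood above the controls in this order for 2.75% of all genes tested, and of the 10 genes for BMP6 alone.

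Some markers of other cells had that order as well. KRT17, a keratin of basal epithelium, reached 66.9, 135 and 9.29 FPKM with EFTUD2 (replicates 1 to 3) and at most 1.80 FPKM in the controls. COL1A1, a collagen of fibroblasts, reached 0.78, 2.05 and 0.11 FPKM with EFTUD2 and at most 0.15 FPKM in the controls, so that replicate 3 overlapped them. Over the list of 10 fibroblast markers, 4 could be tested and all 4 had a fitted increase, the summed level was 0.53 to 1.65 FPKM in control and 2.35 to 4.91 FPKM in EFTUD2-overexpressing cells, and COL1A2 was listed at 0 in every library. PDGFRB, a large part of these sums, was at 1.43, 0.41 and 1.05 FPKM in control and at 1.10, 0.68 and 2.07 FPKM with EFTUD2. Its groups overlapped, and it was highest in EFTUD2 replicate 3, unlike the order above. Of the 10 squamous and ductal markers, 6 could be tested, 4 with a fitted increase, and KRT5 was listed at 0 in every library. KRT19, a keratin of ductal epithelium and the most abundant of the list, went the other way, with 314, 358 and 373 FPKM in control and 163, 153 and 103 FPKM in EFTUD2-overexpressing cells, all below the controls. EPCAM overlapped, at 86.7 to 115 and 93.1 to 104 FPKM. The summed level of the list was 436 to 529 FPKM in control and 238 to 506 FPKM in EFTUD2-overexpressing cells.

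Markers of endothelial cells, a known source of BMP6 in liver, were low in these Hep G2 libraries. Of 10 listed markers 9 were in the table and 5 could be tested, 2 with a fitted increase and 3 with a decrease, and their summed level was 4.37 to 6.45 FPKM in control and 2.57 to 4.58 FPKM in EFTUD2-overexpressing cells. Of the 5 tested, 2 lay above and 1 below the controls in every EFTUD2 library, where 7.92% and 19.4% of all genes did. CDH5, which defines endothelial cells, was at 0.06 to 0.08 FPKM in control and at 0.19 to 0.28 FPKM with EFTUD2. VWF was at 0.33, 0.15 and 0.27 FPKM in control and at 0.60, 0.54 and 0.46 FPKM with EFTUD2. PECAM1 lay below the controls, while TIE1 and LYVE1 had fitted decreases and overlapped. Of 10 macrophage markers 8 were in the table and 3 could be tested, with a summed level of 19.1 to 31.8 and 27.7 to 36.0 FPKM that was mostly CD68, and TYROBP was listed at 0 in every library. Of the 3 tested, 2 had a fitted increase and 1 a decrease. CD14 was at 0.86, 0.60 and 1.03 FPKM in control and at 1.41, 2.06 and 2.51 FPKM with EFTUD2, without overlap, while CD68 and AIF1 overlapped. Erythroid genes summed to 1.87 FPKM at most, and ALAS2, KLF1 and the alpha and beta globins stayed too low for a test but for HBA1. The part of such cells in the values of BMP6 and BMP2 was not tested, and in these bulk libraries more cells of a type and more RNA per cell cannot be told apart.

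Transferrin (TF, Entrez gene 7018, chr3:133745956-133796640), the plasma carrier of ferric iron and one of the main secreted products of these cells, was at 703, 538 and 761 FPKM in control and at 789, 753 and 1115 FPKM in EFTUD2-overexpressing cells. EFTUD2 replicate 3 was the highest, and replicate 2 fell just below the highest control. The means were 667 ± 116 and 886 ± 199.6 FPKM (SD, n = 3 each). The log2 fold change was 0.40 (standard error 0.21, 95% interval -0.10 to 0.90, adjusted p = 0.43 from limma), with 0.22 without EFTUD2 replicate 3, 0.25 without control replicate 2 and 0.17 with quantile scaling.

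TFRC (Entrez gene 7037, chr3:196027183-196082189), the receptor that takes up iron-loaded transferrin in most dividing cells, was at 75.4, 101 and 82.6 FPKM in control and at 88.7, 94.7 and 73.0 FPKM in EFTUD2-overexpressing cells. The ranges nearly coincided. Its log2 fold change was -0.01 (standard error 0.15, adjusted p = 0.97 from limma), with a 95% interval from -0.38 to 0.35, the narrowest of the 10 genes. The sign turned with median of ratios scaling, at 0.11, and with quantile scaling, at 0.016.

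TFR2 (Entrez gene 7036, chr7:100620416-100642779), a receptor of hepatocytes and erythroid cells that takes part in sensing transferrin iron and in hepcidin control, was at 22.5, 13.5 and 22.3 FPKM in control. In EFTUD2-overexpressing cells it was at 26.7, 24.6 and 42.1 FPKM, and its groups did not overlap (two-sided exact permutation p = 0.1). The means were 19.4 ± 5.15 and 31.1 ± 9.60 FPKM (SD, n = 3 each). The fitted change on the log2 scale was 0.65 (standard error 0.27, 95% interval 0.01 to 1.29, adjusted p = 0.40 from limma). The value was 0.42 without control replicate 2 and also 0.42 without EFTUD2 replicate 3.

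The balance of the 2 receptors, TFRC to TFR2, was 3.36, 7.51 and 3.70 in control and 3.33, 3.86 and 1.73 in EFTUD2-overexpressing libraries. These ranges overlapped (difference of the mean log2 ratio -0.69, exact permutation test, two-sided p = 0.4). Without control replicate 2 it was -0.33, and it was -0.34 without EFTUD2 replicate 3.

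Ferroportin (SLC40A1, Entrez gene 30061, chr2:189560579-189583758), the exporter on which hepcidin acts, was at 14.6, 23.97 and 21.1 FPKM in control and at 18.8, 25.0 and 16.3 FPKM in EFTUD2-overexpressing cells. Neither group stood above the other. Its log2 fold change was 0.01 (standard error 0.22, 95% interval -0.52 to 0.55, adjusted p = 0.98 from limma), and it was -0.026 with a common sum per library.

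Ceruloplasmin (CP, Entrez gene 1356, chr3:149162410-149222055), a copper ferroxidase that prepares exported iron for transferrin and is also an acute-phase protein, was at 31.7, 7.61 and 24.8 FPKM in control. It was at 33.1, 32.8 and 41.6 FPKM in EFTUD2-overexpressing cells, with the lowest of these just above the highest control (two-sided exact permutation p = 0.1). The log2 fold change was 0.92 (standard error 0.47, 95% interval -0.20 to 2.04, adjusted p = 0.43 from limma). Control replicate 2 carried much of it, and without that library the value was 0.33.

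The ferritin genes stood at the top of the transcriptome. FTL (Entrez gene 2512, chr19:48965301-48966878), the light chain that aids mineral formation, had the highest mean FPKM of all genes tested, and FTH1 (Entrez gene 2495, chr11:61959718-61967660), the heavy chain with ferroxidase activity, ranked at position 12. Together they made up 1.65, 2.25 and 1.98% of the summed FPKM in control and 2.05, 2.40 and 2.23% in EFTUD2-overexpressing libraries. Both genes have many processed pseudogenes in the human genome, and how reads shared with them were assigned is not given in the sources used here; the pseudogene FTH1P18, listed under its own name, reached at most 0.06 FPKM.

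FTH1 was at 1273, 1737 and 1633 FPKM in control and at 1749, 2147 and 1894 FPKM in EFTUD2-overexpressing cells. The groups did not overlap, but EFTUD2 replicate 1 lay only just above control replicate 2 (exact permutation test, two-sided p = 0.1). Its log2 fold change was 0.33 (standard error 0.18, 95% interval -0.11 to 0.76, adjusted p = 0.44 from limma). With quantile scaling it was 0.03, and without control replicate 1, the lowest library, it was 0.19.

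FTL was at 5404, 7649 and 6628 FPKM in control and at 6770.4, 8012 and 7812 FPKM in EFTUD2-overexpressing cells, with overlapping groups. Its log2 fold change was 0.21 (standard error 0.23, 95% interval -0.33 to 0.75, adjusted p = 0.65 from limma). It was 0.08 without control replicate 1 and 0.33 without control replicate 2. As the highest gene of every library it takes the same value in all of them after quantile scaling, so its fitted change is 0 there by construction.

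Of light to heavy chain, FTL to FTH1, the FPKM ratio was 4.25, 4.404 and 4.06 in control and 3.87, 3.73 and 4.13 in EFTUD2-overexpressing libraries. It overlapped in 1 library of each group (difference of the mean log2 ratio -0.12, exact permutation test, two-sided p = 0.2). Uptake against storage, TFRC to FTH1, gave 0.0592, 0.0582 and 0.0506 in control and 0.0507, 0.0441 and 0.0386 in EFTUD2-overexpressing libraries. Control replicate 3 and EFTUD2 replicate 1 were level, and all other EFTUD2 libraries were below all controls (difference -0.34, two-sided exact permutation p = 0.2). With quantile scaling, which changes ratios within a library, this difference was -0.016 and that of FTL to FTH1 was -0.031.

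**Figure D4:**
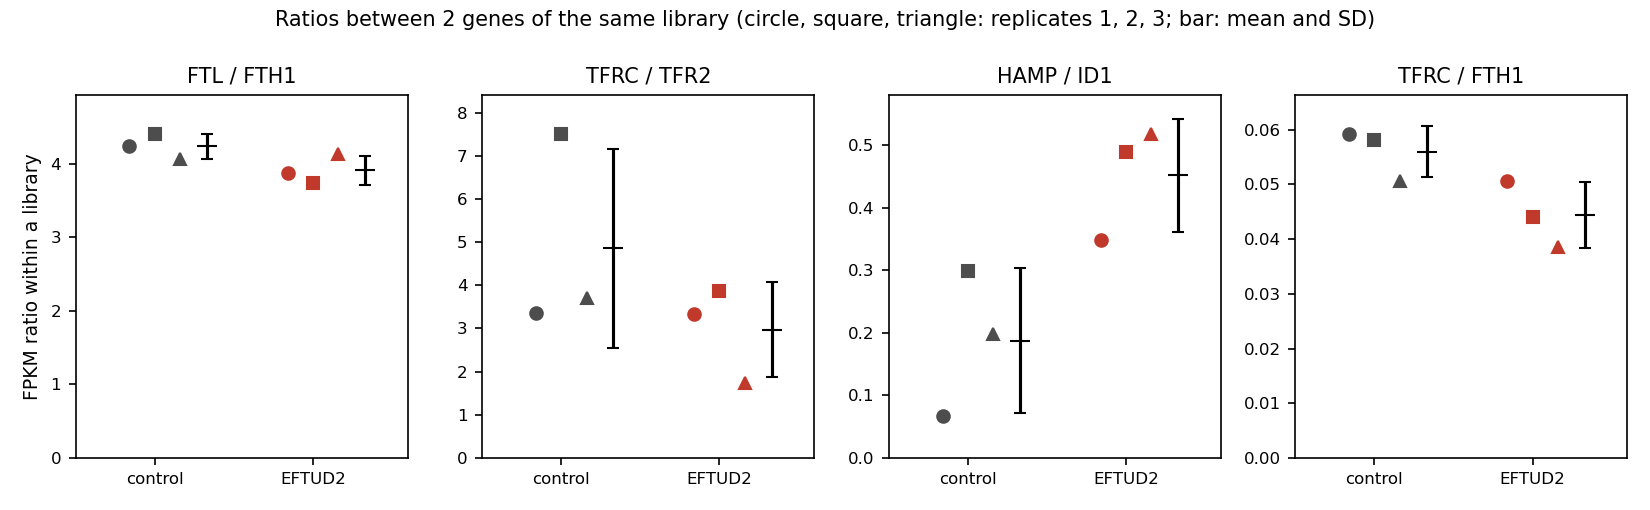
FPKM ratios of 2 genes of the same library for 4 gene pairs, in 3 control (grey) and 3 EFTUD2 (red) libraries with the mean and SD (n = 3). HAMP to ID1 separates the groups, with 0.298 as the highest control and 0.349 as the lowest EFTUD2 library, and the other 3 ratios overlap.

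By mean level over the 6 libraries the order was FTL (7046 FPKM), FTH1 (1739), TF (777), ID1 (211), TFRC (85.9), HAMP (69.9), CP (28.6), TFR2 (25.3), SLC40A1 (19.9) and BMP6 (0.43). HAMP was below ID1 in every library, although their ranges over libraries overlapped, and its range also reached across those of TFRC, CP, TFR2 and SLC40A1. CP, TFR2 and SLC40A1 overlapped each other, so their order is not fixed by the data. ID1 lay above TFRC, and TFRC above CP, TFR2 and SLC40A1, without overlap. FTL, FTH1, TF and BMP6 overlapped no neighbor.

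The 10 genes fell into 3 patterns over the libraries, a grouping made after the values were seen. HAMP, ID1, BMP6, SLC40A1, FTH1 and FTL were each lowest in control replicate 1 and highest in EFTUD2 replicate 2, a combination found in 3.57% of all genes tested. TF, TFR2 and CP were lowest in control replicate 2 and highest in EFTUD2 replicate 3, as were 8.3% of all genes and 5 of the 10 hepatocyte markers. TFRC had the opposite pattern of these 3, highest in control replicate 2 and lowest in EFTUD2 replicate 3, which 18.6% of all genes shared. ALB, albumin, one of those markers, was at 3027, 1773 and 2373 FPKM in control and at 2287, 2215 and 4732 FPKM in EFTUD2-overexpressing cells, and so followed TF and TFR2.

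Other genes of iron metabolism were read from lists by function. Among 22 genes that control hepcidin, 19 could be tested, 6 with a fitted increase and 13 with a decrease (median log2 fold change -0.13), and 0 passed limma's adjusted threshold. Over all genes tested, 37.3% had a fitted increase and the median was -0.07. Of the 19 genes, 3 lay above and 5 below the controls in every EFTUD2 library, where 7.92% and 19.4% of all genes did. TMPRSS6, a protease that dampens BMP signaling to hepcidin, was at 1.75, 1.35 and 2.26 FPKM in control and at 2.45, 2.93 and 4.48 FPKM in EFTUD2-overexpressing cells, without overlap (log2 fold change 0.61 with a standard error of 0.22, adjusted p = 0.40 from limma). SMAD1, which carries the BMP signal to the nucleus, stood at 6.13 ± 0.32 and 4.67 ± 1.41 FPKM in control and EFTUD2-overexpressing cells (SD, n = 3 each; adjusted p = 0.45 from limma), and SMURF1, a ubiquitin ligase for SMAD proteins, at 11.02 ± 1.72 and 8.23 ± 0.11 FPKM (adjusted p = 0.40). HFE, mutated in hereditary hemochromatosis, was at 2.35 to 3.78 FPKM in control and 1.86 to 4.30 FPKM with EFTUD2, and HJV, a BMP coreceptor, stayed at or below 0.08 FPKM in every library.

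In the IL-6 branch of hepcidin control, all 7 genes were tested, 4 with a fitted increase, and 3 lay above and 1 below the controls in every EFTUD2 library, where 7.92% and 19.4% of all genes did. SOCS3, the feedback inhibitor of STAT3, measured 0.85, 0.55 and 1.29 FPKM in control against 6.68, 10.4 and 3.27 FPKM with EFTUD2 (log2 fold change 1.94, standard error 0.36, limma's adjusted p = 0.27). IL6 followed the order of BMP2, with 1.69, 2.97 and 0.15 FPKM in EFTUD2-overexpressing cells and no more than 0.01 FPKM in the controls. Its receptor IL6R was at 12.6, 19.0 and 14.6 FPKM in control and 10.7, 11.1 and 11.98 FPKM in EFTUD2-overexpressing cells (log2 fold change -0.40, standard error 0.16, adjusted p = 0.40). STAT3 was at 52.4, 48.6 and 50.5 FPKM in control and at 63.2, 67.05 and 53.8 FPKM with EFTUD2, without overlap. Its log2 fold change was 0.27 (standard error 0.11, limma's adjusted p = 0.40). IL6ST, JAK1 and JAK2 overlapped between the groups.

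Of 29 genes of iron uptake and transport, 22 could be tested, 13 with a fitted increase (median 0.14), and 8 lay above and 3 below the controls in every EFTUD2 library, against the same 7.92% and 19.4% of all genes. LCN2, a secreted protein that binds iron-loaded siderophores, was at 17.0, 7.02 and 12.3 FPKM in control and at 52.6, 82.2 and 83.8 FPKM in EFTUD2-overexpressing cells. Its mean was 6.02 times higher (log2 fold change 2.54, standard error 0.32), and its adjusted p of 0.19 from limma was the lowest of any gene in these lists. HP, haptoglobin, which binds free hemoglobin, had means of 127 ± 49.2 and 479.7 ± 196 FPKM (SD, n = 3 each). Its log2 fold change was 1.89, with a standard error of 0.37 and an adjusted p of 0.28 from limma. Both are acute-phase proteins as well. On the other side stood STEAP1, of the metalloreductase family (log2 fold change -0.85, standard error 0.29, adjusted p = 0.40), and EXOC6, of the exocyst (-0.35, adjusted p = 0.41). The STEAP family did not move as one. STEAP2 also lay below the controls (log2 fold change -0.28). STEAP4 lay above them, at 1.80, 3.81 and 0.23 FPKM with EFTUD2 against 0.01 FPKM in every control (log2 fold change 1.34, limma's adjusted p = 0.40).

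Other transporters of the list separated the groups in some cases and overlapped in others. SLC39A8, a metal transporter picked out after its values were seen, was at 0.22, 0.16 and 0.20 FPKM in control and at 2.56, 4.73 and 0.31 FPKM in EFTUD2-overexpressing cells, without overlap and in the order of BMP2. The groups overlapped for the next 3 genes. SLC39A14, which takes up iron that is not bound to transferrin, was at 206 ± 26.4 and 230 ± 19.7 FPKM (SD, n = 3 each), SLC11A2, which moves iron out of endosomes, at 28.2 ± 2.66 and 26.3 ± 1.97 FPKM, and the endosomal reductase STEAP3 at 25.0 ± 7.38 and 20.9 ± 5.62 FPKM. NCOA4, which delivers ferritin for breakdown, was at 137 to 160 FPKM in control and at 141, 129 and 221 FPKM in EFTUD2-overexpressing cells. Among the iron sensors, ACO1 (16.2 ± 1.76 and 16.3 ± 1.96 FPKM) and IREB2 (18.5 ± 1.89 and 17.0 ± 2.03 FPKM), the genes of both iron regulatory proteins, had 95% intervals that spanned 0. Of the 12 genes listed for iron sensing and mRNA decay, 6 had a fitted increase and 6 a decrease. RC3H1, of the mRNA decay factors, was at 4.05 ± 0.18 and 3.79 ± 0.09 FPKM, and EPAS1, the hypoxia factor whose mRNA also carries an iron-responsive element, was at 56.7 ± 3.82 and 65.2 ± 3.67 FPKM without overlap (adjusted p = 0.43 from limma).

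In heme metabolism 6 of 15 genes had a fitted increase, against 37.3% of all genes tested. Of the 15, 2 lay above and 3 below the controls in every EFTUD2 library, where 7.92% and 19.4% of all genes did. ALAS1, the first enzyme of heme synthesis in liver, was at 20.9, 24.1 and 19.9 FPKM in control and at 25.0, 29.7 and 30.5 FPKM in EFTUD2-overexpressing cells (log2 fold change 0.38 with a standard error of 0.13, limma's adjusted p = 0.40), and the next enzyme ALAD was at 11.8 ± 1.66 and 15.0 ± 3.29 FPKM. UROD, further down the pathway, and the heme exporter ABCG2 lay below the controls in every EFTUD2 library, at 36.3 ± 10.3 against 49.0 ± 5.34 FPKM and at 2.46 ± 0.33 against 3.11 ± 0.22 FPKM. HMOX1, which breaks heme down, was at 13.0, 32.2 and 24.8 FPKM in control and at 35.8, 48.3 and 10.9 FPKM with EFTUD2, and overlapped widely.

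Of 24 genes of iron-sulfur cluster assembly, 18 had a fitted decrease (median log2 fold change -0.14), as had 10801 of all 17222 genes, and 9 lay below and 2 above the controls in every EFTUD2 library, where 19.4% and 7.92% of all genes did. GLRX3, a cytosolic carrier of such clusters, was at 80.5 ± 10.2 and 58.9 ± 4.35 FPKM (SD, n = 3 each). This was a log2 fold change of -0.44, with a standard error of 0.12 and limma's adjusted p = 0.40. ISCU, the scaffold on which clusters are built, was at 25.8 ± 1.36 and 30.3 ± 4.22 FPKM, and GLRX5, which hands them on in mitochondria, at 81.5 ± 3.97 and 96.1 ± 16.4 FPKM, while the assembly factor IBA57 was at 2.09 ± 0.11 and 1.43 ± 0.49 FPKM. None of these genes had an adjusted p under 0.05.

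**Figure D5:**
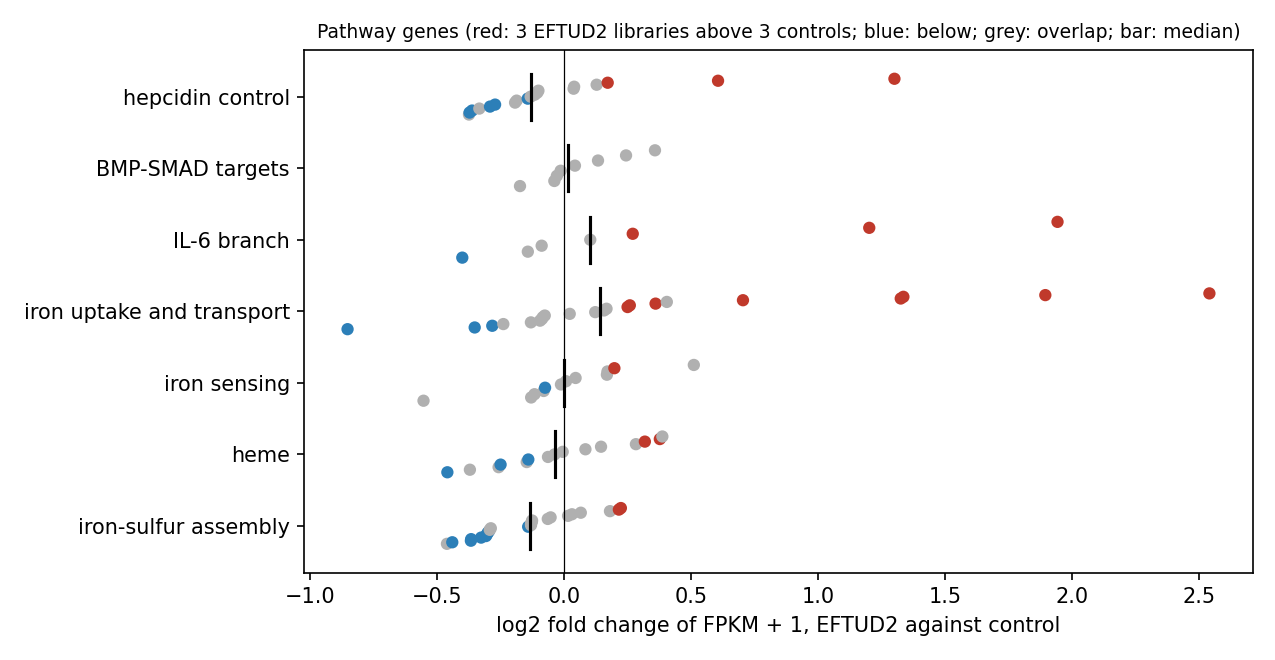
Fitted log2 fold change of each tested gene in 7 lists of iron biology (points: red, all EFTUD2 libraries above all controls; blue, all below; grey, overlapping; black bar, median of the list). The largest values are LCN2 at 2.54, SOCS3 at 1.94 and HP at 1.89, and the iron-sulfur list has a median of -0.14, where that of all genes tested is -0.07.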

How the data were processed

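The authors deposited 1 table of FPKM values (fragments scaled to transcript length and library size) for 23524 genes in 6 libraries, given to 2 decimals. Their processing notes name build hg38, HISAT2, Bowtie2, RSEM and DESeq2 without roles. No read counts were used, and low values showed no common step between libraries, so the depth behind a value is unknown. Of 18762 Entrez gene numbers, 18449 matched the RefSeq gene table (GRCh38.p14), which gave current symbols.

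From these values log2(FPKM + 1) was computed for genes whose mean reached 0.1 FPKM. The groups were compared in R 4.3.3 with limma 3.58.1 and its trend option. Benjamini-Hochberg adjustment ran over all genes tested, with calls made under 0.05. Single values and within-library ratios were compared by exact two-sided permutation tests, whose smallest p is 0.1. The fit was checked on simulated data. Alternatives were other pseudocounts, filters, scalings and weights, the replicate number as a block, and libraries left out. A library was left out by filtering again on the others. Gene positions and transcripts came from GENCODE 29 (GRCh38), read in Python 3.11.15. Promoter sequences are not reported here.

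The members, the pathway and marker lists and the rule for named genes were chosen with earlier results of these data known. Besides the members, the rule named 14 regulators and, from each pathway list, up to 2 genes of each direction with the largest changes among those whose groups did not overlap. ID2, ID3, ALB, STAT3, IL6ST, JAK1, JAK2, STEAP2, STEAP4 and the single marker genes were picked out after their values were seen.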

Additional observations from a re-analysis of the deposited data

How the results depend on the processing

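Across 17 other settings, 16 gave 0 calls among the 10 genes, and array weights gave 1 (BMP6). Over all genes, limma called 1246 with array weights, 16 without both control replicate 1 and EFTUD2 replicate 3 (a setting added after the data were seen), and 0 to 167 without 1 library, the 167 without EFTUD2 replicate 3. The median of the 10 genes was 0.16 with quantile scaling, and between 0.25 and 0.43 with 1 library left out. The signs of HAMP, CP, TFR2, TF, FTH1 and BMP6 held in every setting in which they were tested, with log2 fold changes of 0.51 to 2.15 for HAMP, 0.33 to 1.30 for CP, 0.25 to 0.79 for TFR2, 0.08 to 0.53 for TF, 0.03 to 0.45 for FTH1 and 0.26 to 1.72 for BMP6. Other filters, a robust variance estimate and the replicate block leave a fitted change as it is, so no sign could turn in those settings. FTL ran from 0 (quantile scaling) to 0.33. A mean of at least 1 FPKM removed BMP6. The sign of TFRC turned with median of ratios scaling (0.11), quantile scaling (0.016), array weights (0.14) and without both libraries (0.0040), and it ran from -0.10 to 0.11 with 1 library left out. SLC40A1 was at -0.026 with a common sum per library, at -0.05 without both libraries and at -0.18 to 0.16 with 1 left out, and ID1 at -0.35 to 0.42. The cause of these turns was not tested.

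The labels do not say whether the replicate numbers pair the libraries. Deviations from the group mean correlated at -0.299, 0.353 and -0.0936 for same-numbered libraries. For libraries of other numbers the correlations ran from -0.397 to 0.382, so these values do not decide the question. With the replicate number as a block, limma called 0 genes, as without it, 0 of them among the 10, whose median was 0.36. Adjusted p-values were 0.42 for HAMP, CP, TFR2 and BMP6. At an unadjusted p under 0.05 from limma, these 4 of the 10 genes passed with the block, and 2 without it. Over all 17222 genes tested, 774 higher and 1253 lower genes met this threshold with the block. A block of complete pairs leaves fitted changes and mean differences as they are, so the median above and the ratio differences were unchanged by construction. The differences were -0.12 for FTL to FTH1, -0.69 for TFRC to TFR2, 1.5 for HAMP to ID1 and -0.34 for TFRC to FTH1. Exact sign flips within pairs gave a two-sided p = 0.5 for FTL to FTH1 and 0.25 for each other ratio. With 1 library left out the differences ran, in the same order, from -0.16 to -0.08, -0.92 to -0.33, 0.87 to 1.96 and -0.44 to -0.24. With quantile scaling, added after the data were seen, they were -0.031, -0.75, 1.6 and -0.016. As depth is unknown, no counting error can be given for low genes such as BMP6.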
